A study of Mus musculus with 8 samples.

Results

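The transcripts of 36 chemokines, cytokines and other secreted factors linked to senescence were examined in muscle stem cells (MuSCs) of mice fed with or without vitamin A (VA). The members were a fixed list of genes: 22 chemokines, 9 interleukins and other cytokines, and 5 insulin-like growth factor (IGF) binding proteins, among the 36047 genes with a transcript in the files. All 36 were matched by symbol and all 36 passed the expression filter, which left 17997 genes in the comparison. A second copy of Ccl19 on an unplaced scaffold had 0 counts in every library, so the copy on chromosome 4 was used.

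Every mouse was a male Pax7CreERT2-Rosa26 nTnG reporter aged 5 to 6 months, in which tamoxifen given to both groups switches Pax7-expressing cells from nuclear tdTomato to nuclear GFP. The 3 VA-free mice ate a custom chow lacking VA for 8 weeks, and the 2 control mice stayed on normal chow, so the diets may differ in more than VA. Live nGFP+ cells of the gastrocnemius and quadriceps were sorted, and the RNA of each mouse was split at the spin column into technical replicates A and B. The 8 sequenced libraries came from VA-free RNA 1B, 2A and the pair 3A and 3B, and from control RNA 1A, 1B, 2A and 2B, so VA-free mice 1 and 2 rest on 1 library each. Values of single libraries are listed in the order just given. The reporter marks cells that expressed Pax7 at labelling and their progeny, and the purity of the sort was not measured here.

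Chemokines are small secreted proteins that guide leukocytes along gradients through G protein-coupled receptors, and they are grouped as CC, CXC or CX3C by the spacing of their leading cysteines. Senescent cells release many of them together with interleukins, proteases and IGF binding proteins, a mixture called the senescence-associated secretory phenotype. In skeletal muscle, macrophages, endothelial cells, fibro-adipogenic progenitors (FAPs) and MuSCs can all make such factors, and after injury chemokines bring in neutrophils and then monocytes.

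Most of these factors had less transcript in VA-free than in control MuSCs. Of the 36 members, 21 fell and 2 rose (Cx3cl1 and Igfbp4) past an adjusted p of 0.05 (Benjamini-Hochberg) in the quasi-likelihood test of edgeR, and 13 did not pass. Of all 17997 genes tested, 41.4% passed, 22.5% lower and 18.9% higher. The log2 fold change, given throughout as VA-free over control, was below 0 for 31 of the 36 members, with a median of -1.56 against 0.003 over all genes. The 3 VA-free mice were all below both control mice for 28 members and all above them for 4. Over all genes tested the same separation held for 32.2% lower and 31.0% higher. At the level of the libraries, 16 members were lower and 2 higher without overlap, against 21.5% and 19.8% of all genes. Since the RNA was bulk, fewer cells of a type and less RNA per cell cannot be told apart.

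**Figure D1:**
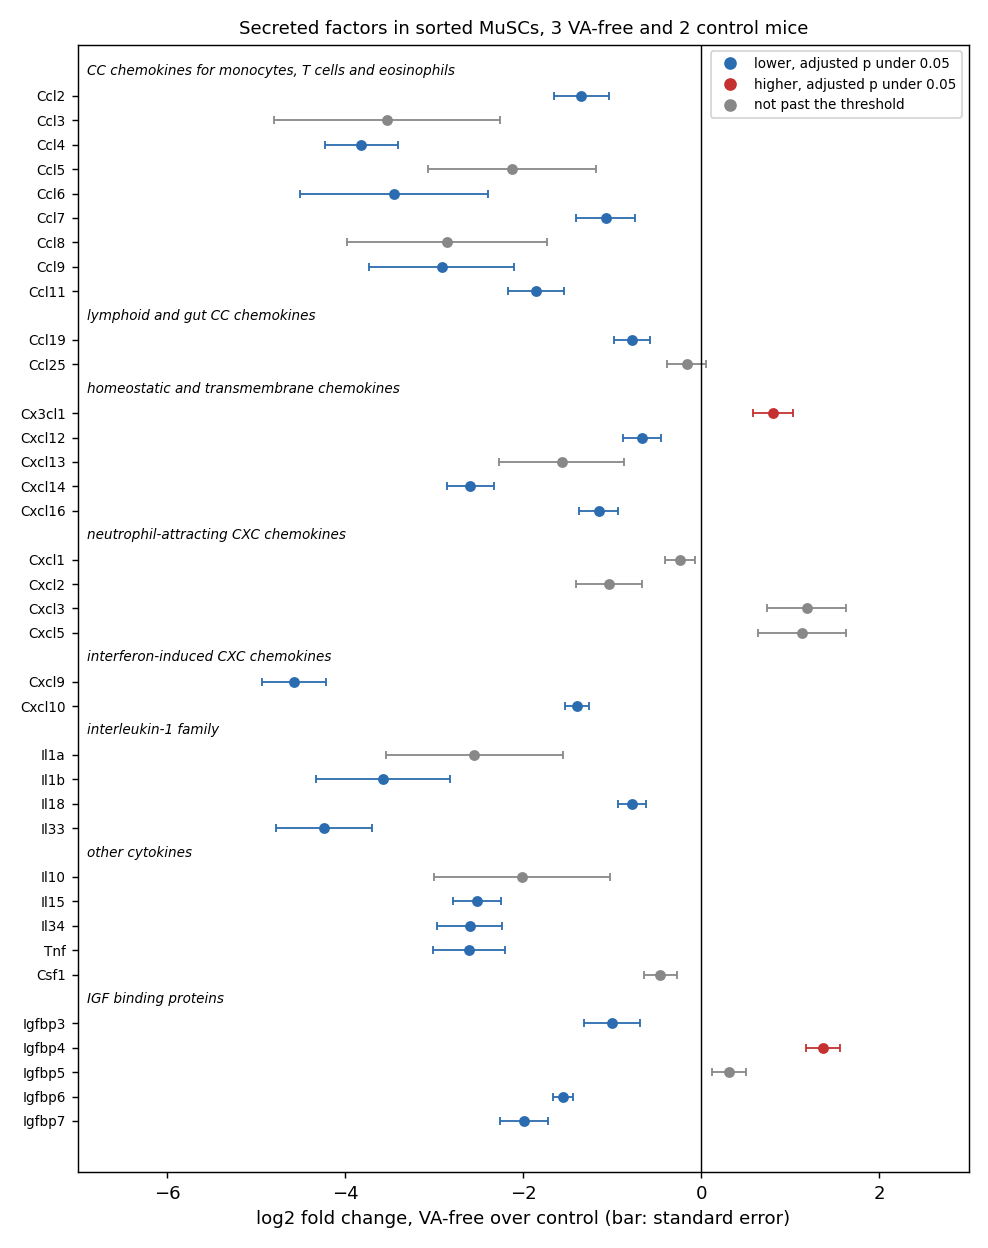
The horizontal axis gives the log2 fold change of each member, VA-free over control, from 3 and 2 mice, with bars for the standard error, grouped by role. The 21 members in blue lie below 0, and of the 2 in red Igfbp4 lies at 1.36 and Cx3cl1 at 0.81.

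The libraries also differed in total counts and in the markers of cell types. Each held between 44831232 and 88650428 estimated counts. All 14 MuSC markers rose on the VA-free diet, among them Pax7, from 79.9 and 76.2 CPM (TMM-normalized counts scaled to a common library total) in control mice 1 and 2 to 151, 145 and 99.3 CPM in VA-free mice 1 to 3, and Myf5. The summed level of these markers ranged from 8309 to 9137 CPM in the VA-free libraries and from 2413 CPM (control 2A) to 5307 CPM (control 2B) in the controls. Markers of other cells of muscle fell: 12 of 12 for endothelial cells, 11 of 12 for Schwann cells, 9 of 12 for tenocytes, with Col12a1 higher, and 8 of 12 for FAPs, with Col3a1 higher. For pericytes and smooth muscle, 6 fell and 2 rose of 12, and Des, which rose, is also in the MuSC list. Of all genes tested, 22.5% were called lower and 18.9% higher. With the trend of fold change with transcript length removed, 8 tenocyte markers were lower and 0 higher, so Col12a1 no longer passed. In that fit 13 MuSC markers were higher, and 12 endothelial and 12 Schwann cell markers were lower. For FAPs 9 were lower and 1 higher, and for pericytes and smooth muscle 7 and 2. Of all genes, 17.5% were then called lower and 12.0% higher. Endothelial markers summed to 258.1 to 352.4 CPM in the VA-free libraries and 1346 to 3387 CPM in the controls, and Schwann cell markers to 488.5 to 516.8 and 1080 to 1442 CPM. Tenocyte markers summed to 1104 to 1496 and 1887 to 2133 CPM, pericyte and smooth muscle markers to 2945 to 3134 and 2879 to 4017 CPM, and FAP markers, led by Col3a1, to 16640 to 18880 and 8578 to 15050 CPM. Ackr1, Cdh19, Gfra3 and Kera were at 0 in 1 VA-free library each, and no other marker of these lists was at 0 in any library. The part of these cells in the results was not tested.

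The summed level of macrophage and monocyte markers was highest in control mouse 2, although Csf1r was highest in VA-free mouse 2. Of 14, Cd68, Cd14, Lyz2 and Ptprc fell and 10 did not pass, and all VA-free mice were below both control mice for 4 of the 14. Over all genes tested 22.5% were called lower and 32.2% were separated in this way. Their summed level was 79.6 CPM in VA-free 1B, 175.8 in 2A, 33.4 in 3A and 29.1 in 3B, against 232.2, 194.8, 976.1 and 730.9 CPM in the control libraries, so that control mouse 2 stood above all others. Fcgr1 was at 0 in VA-free 3A and 3B and control 1B, and Mrc1 in control 1B. Of 12 neutrophil markers 3 passed the filter and edgeR called 0 of them, with 1 (Csf3r) at an unadjusted p under 0.05 and 0 calls by DESeq2 or limma-voom; the list summed to 1.85 to 2.94 and 1.59 to 8.78 CPM, and S100a8, S100a9, Ly6g, Retnlg, Mpo, Elane, Camp, Ngp, Ltf and Mmp8 were each at 0 in 2 or more libraries. Of 12 T, NK and B cell markers 5 passed the filter. Of these, 2 fell, Nkg7 among them, and 3 did not pass, against 22.5% of all genes called lower. The list summed to 1.52 to 2.48 CPM in the VA-free and 2.52 to 5.19 CPM in the control libraries. Nkg7 was at 0 in all 4 VA-free libraries, so it passed the filter on its control counts. Klrb1c, Ncr1 and Gzma were at 0 in 6 or 7 libraries.

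**Figure D2:**
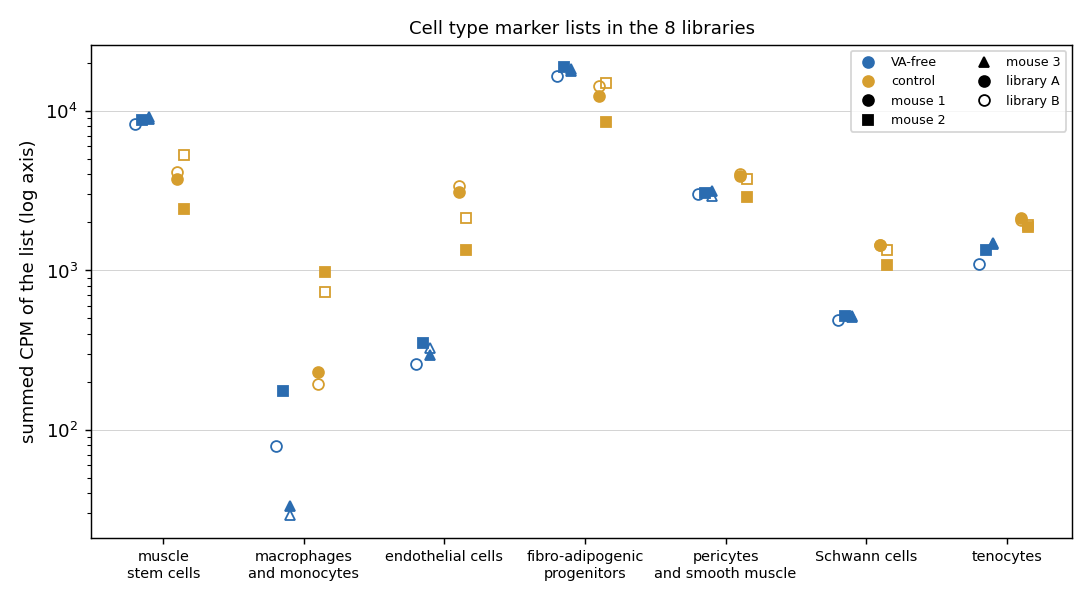
The vertical axis gives the summed CPM of each marker list on a log axis, with VA-free libraries in blue and control libraries in orange, the shape marking the mouse and open symbols library B. MuSC markers lie at 8309 to 9137 CPM on the VA-free diet and at 2413 to 5307 CPM on the control diet, while macrophage markers reach 976 CPM in control mouse 2.

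Among the CC chemokines that draw monocytes, T cells and eosinophils, 6 of 9 fell and 3 did not pass, against 22.5% of all genes called lower, with a median log2 fold change of -2.86. With the trend of fold change with transcript length removed, 2 of the 9 were called lower, against 17.5% of all genes. They sit in 2 gene clusters on chromosome 11 of GRCm38. The first, within chr11:82035571-82116799, holds Ccl2, Ccl7, Ccl11 and Ccl8. Ccl2 (chr11:82035571-82037453), the main monocyte attractant acting through Ccr2, was at 32.8, 47.1 and 31.4 CPM in VA-free mice 1, 2 and 3 and at 62.7 and 126 CPM in control mice 1 and 2. The SE beside a fold change is its standard error. The highest VA-free mouse lay below the lowest control mouse, and the log2 fold change was -1.35 (SE 0.31, adjusted p = 0.0121). Without control mouse 2 it was -0.76 (adjusted p = 0.0487) and without control 2A -0.82 (adjusted p = 0.0126). It did not pass with the trend of fold change with transcript length removed (-0.62, adjusted p = 0.185) or in log2 TPM, a level scaled by transcript length (-0.83 and -0.84 with pseudocounts of 1 and 0.1). Ccl11 (chr11:82057823-82062955), an eosinophil attractant that signals through Ccr3, was at 9.53, 20.6 and 19.7 CPM on the VA-free diet and 55.8 and 64.5 CPM on the control diet. The diets did not overlap in any library for this gene, and it fell by 1.86 (SE 0.31, adjusted p = 0.00362).

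Ccl7 (chr11:82045712-82047525), a further Ccr2 ligand next to Ccl2, was at 37.7, 61.4, 45.9 and 45.6 CPM in the VA-free libraries and at 66.5, 57.9, 241 and 60.9 CPM in the control libraries. Control 2A stood apart from the other 7 libraries, whose values overlapped between the diets. Its log2 fold change of -1.08 (SE 0.33, adjusted p = 0.0377) was -0.41 without control mouse 2 (adjusted p = 0.244) and -0.37 without control 2A (adjusted p = 0.173). It also missed the threshold without control 2B (-1.68, adjusted p = 0.0751), control 1A, VA-free mouse 1 or VA-free mouse 3 (adjusted p between 0.0690 and 0.117 for these 3), and it passed in 14 of 25 alternatives. Ccl8 (chr11:82115185-82116799), which attracts monocytes, had 9, 67, 2 and 5 counts in the VA-free libraries and 179, 11, 323 and 133 counts in the control libraries. These libraries overlapped through VA-free 2A and control 1B. The log2 fold change of -2.86 did not pass (SE 1.13, adjusted p = 0.0832), and it passed in 7 of 25 alternatives, among them DESeq2 (-2.83, adjusted p = 0.0221), limma-voom (-4.08, adjusted p = 0.0105) and the fit without VA-free mouse 2 (-5.19, adjusted p = 0.00319).

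The other cluster, within chr11:83525778-83664683, holds Ccl5, Ccl9, Ccl6, Ccl3 and Ccl4. Ccl4 (chr11:83662584-83664683), which attracts monocytes, T cells and NK cells, was at 0.256, 0.161, 0.11 and 0.322 CPM in the VA-free libraries. In the control libraries it was at 2.46, 2.77, 4.03 and 3.25 CPM. Every VA-free library lay below every control library, and the log2 fold change was -3.82 (SE 0.41, adjusted p = 0.00069), between -4.12 and -2.27 over the 25 alternatives, all past the threshold.

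Ccl6 (chr11:83587882-83593087) and Ccl9 (chr11:83572919-83578636) are ligands of Ccr1 made largely by myeloid cells. Ccl6 was at 1.49, 2.00, 0.176 and 0.242 CPM in the VA-free libraries and at 3.65, 1.36, 35.8 and 15.8 CPM in the control libraries. Ccl9 was at 0.467, 1.45, 0.553 and 0.471 CPM and 1.81, 1.42, 10.2 and 11.4 CPM in the same order. Both were highest in the libraries of control mouse 2, where the summed macrophage markers were highest too, and both overlapped between the diets through control 1B. Both passed in the comparison of 5 mice, with log2 fold changes of -3.46 (SE 1.05, adjusted p = 0.0365) and -2.92 (SE 0.81, adjusted p = 0.0263). Without control mouse 2 they were -1.11 (adjusted p = 0.427) and -1.06 (adjusted p = 0.299). Ccl6 also missed the threshold without VA-free mouse 1, 2 or 3, control 1A or control 2B (adjusted p between 0.0556 and 0.0958). Ccl9 missed it without VA-free mouse 1 or 3 or control 2B (adjusted p between 0.0650 and 0.0900). With limma-voom neither passed (adjusted p = 0.0845 and 0.0608).

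Ccl3 (chr11:83647844-83649355), close to Ccl4 in sequence class and receptor use, had 16, 37, 0 and 0 counts in the VA-free libraries and 110, 45, 295 and 179 counts in the control libraries. The diets did not overlap in any library, yet its log2 fold change of -3.53 had a wide error (SE 1.27, adjusted p = 0.0638). It passed without VA-free mouse 2 (-5.13), VA-free mouse 3 (-2.91), VA-free 3A (-3.48) or VA-free 3B (-3.47), with adjusted p between 0.0278 and 0.0492, and in 11 of 25 alternatives in all, limma-voom included (-5.32, adjusted p = 0.0237). Ccl5 (chr11:83525778-83530518), an attractant of T cells, rested on 4, 6, 0 and 6 and 22, 27, 0 and 9 counts in the same order, which overlapped. The difference of -2.12 (SE 0.94, adjusted p = 0.116) passed without control mouse 2 (-2.92, adjusted p = 0.0414).

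Of the CC chemokines of lymphoid tissue and gut, Ccl19 fell and Ccl25 did not pass. Ccl19 (chr4:42754525-42756577), the Ccr7 ligand that leads T cells and dendritic cells into lymph nodes, was at 10.5, 9.96 and 13.6 CPM in VA-free mice 1 to 3 and 21.3 and 17.7 CPM in control mice 1 and 2. Mice did not overlap, while VA-free 3B and control 2B were nearly level at 13.8 CPM each. The fall of 0.78 on the log2 scale (SE 0.20, adjusted p = 0.019) missed the threshold without VA-free mouse 1 or 2, control mouse 1 or control 2A (-0.72, -0.69, -0.64 and -0.63, adjusted p between 0.0644 and 0.0725), and it was -0.04 with the length trend removed (adjusted p = 0.899). Ccl25 (chr8:4325210-4360020), which guides T cells to thymus and small intestine, was at 5.43, 4.74 and 5.04 CPM and 5.9 and 5.47 CPM. The mice did not overlap but the difference was small, with a log2 fold change of -0.17 (SE 0.21, adjusted p = 0.578).

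**Figure D3:**
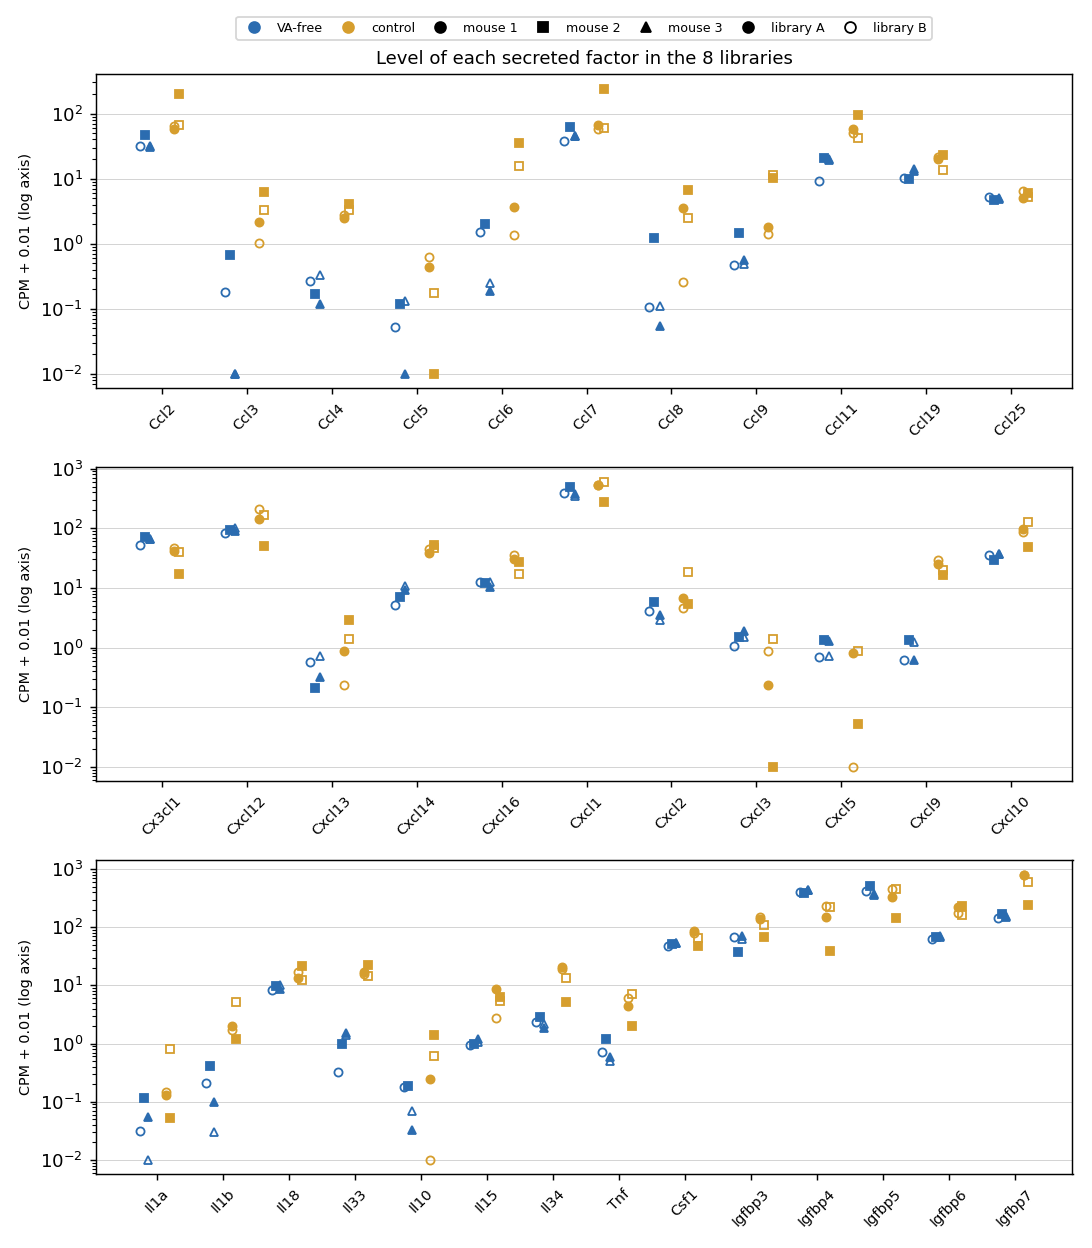
The vertical axes give CPM + 0.01 on a log scale for each member in the 8 libraries, with VA-free in blue, control in orange, the shape for the mouse and open symbols for library B. Cxcl9, Il33, Cxcl14 and Ccl4 leave a gap between all blue and all orange points, whereas for Ccl7 control 2A reaches 241 CPM above the rest.

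Of the homeostatic and transmembrane chemokines, 3 of 5 fell and Cx3cl1 rose, against 22.5% and 18.9% of all genes. Cxcl14 (chr13:56288643-56296551), made constitutively by epithelia and stroma, was at 5.21, 7.09, 9.27 and 10.6 CPM in the VA-free libraries. It was at 38.7, 44.3, 53.3 and 46.9 CPM in the control libraries. All VA-free libraries lay far below all control libraries, with a log2 fold change of -2.60 (SE 0.26, adjusted p = 0.000568). Cxcl16 (chr11:70453983-70459984), a transmembrane chemokine whose receptor is Cxcr6, was at 12.9, 12.1 and 11.7 CPM and 33.6 and 20.96 CPM in the VA-free and control mice. No library overlapped for Cxcl16, and its log2 fold change was -1.16 (SE 0.22, adjusted p = 0.00569).

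Cxcl12 (chr6:117168535-117181367), the ligand of Cxcr4 that retains stem cells in their niches, was at 82.1, 93.8, 89.2 and 100.3 CPM in the VA-free libraries and 145, 211, 49.7 and 168 CPM in the control libraries. Control 2A lay below every VA-free library and the other 3 control libraries above them. Its log2 fold change of -0.67 (SE 0.21, adjusted p = 0.0422) was -0.25 without control mouse 1 (adjusted p = 0.161) and -0.36 without control 2B (adjusted p = 0.635). It missed the threshold as well without VA-free mouse 1, 2 or 3 or control 1A (adjusted p between 0.0568 and 0.129), and it passed in 13 of 25 alternatives. Cx3cl1 (chr8:94772009-94782427), fractalkine, a membrane-anchored chemokine for Cx3cr1-bearing monocytes, was at 52.9, 71.4, 66.0 and 65.7 CPM in the same VA-free libraries and 41.03, 46.8, 17.1 and 39.8 CPM in the control libraries. Each VA-free library was above each control library, and the log2 fold change was 0.81 (SE 0.23, adjusted p = 0.0274). It was 0.50 without control mouse 2 (adjusted p = 0.0787), and it also missed the threshold without VA-free mouse 2 or 3, control 1A or control 2B (0.72, 0.77, 0.75 and 1.02, adjusted p between 0.0613 and 0.132). With offsets for transcript length it was 0.44 (adjusted p = 0.210), and it passed in 16 of 25 alternatives. Cxcl13 (chr5:95956951-95961068), the B cell attractant, had 53, 11, 14 and 36 and 43, 10, 141 and 74 counts in the VA-free and control libraries. Its mice did not overlap by a narrow margin (0.578 CPM in VA-free mouse 1 and 0.580 in control mouse 1). Its log2 fold change of -1.57 did not pass (SE 0.70, adjusted p = 0.117). The size of the fall depended on which control mouse was kept, at -2.21 against control mouse 2 alone and -0.40 against control mouse 1 alone.

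The interferon-induced chemokines Cxcl9 and Cxcl10 both fell, and the neutrophil-attracting Cxcl1, Cxcl2, Cxcl3 and Cxcl5, also on chromosome 5, did not pass. Promoter sequences from both sets are shown because these genes of 1 chromosome fell on different sides of the threshold. Given are the 250 bases before the start of each RefSeq gene (GRCm38.p6), 5′ to 3′ on the strand of the gene, with matches to the NF-kB consensus or the interferon-stimulated response element (ISRE) core GAAANNGAAA in capitals. The windows lie at chr5:90890995-90891244 for Cxcl1, chr5:90903649-90903898 for Cxcl2 and chr5:90785851-90786100 for Cxcl3 on the plus strand, and at chr5:92328080-92328329 for Cxcl9 and chr5:92348890-92349139 for Cxcl10 on the minus strand.
Cxcl1: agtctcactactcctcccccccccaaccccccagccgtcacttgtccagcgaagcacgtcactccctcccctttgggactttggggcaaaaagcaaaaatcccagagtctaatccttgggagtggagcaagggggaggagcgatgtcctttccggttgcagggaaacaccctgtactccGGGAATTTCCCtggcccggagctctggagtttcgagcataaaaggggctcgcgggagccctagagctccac
Cxcl2: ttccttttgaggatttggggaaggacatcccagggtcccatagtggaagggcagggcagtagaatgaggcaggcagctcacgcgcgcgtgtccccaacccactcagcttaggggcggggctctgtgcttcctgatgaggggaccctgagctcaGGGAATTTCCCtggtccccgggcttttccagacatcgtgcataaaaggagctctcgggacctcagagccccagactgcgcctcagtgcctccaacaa
Cxcl3: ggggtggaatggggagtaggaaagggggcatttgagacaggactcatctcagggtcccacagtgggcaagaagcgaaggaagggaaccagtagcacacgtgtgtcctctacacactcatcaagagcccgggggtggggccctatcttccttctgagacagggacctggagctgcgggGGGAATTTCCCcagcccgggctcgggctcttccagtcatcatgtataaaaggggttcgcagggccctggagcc
Cxcl9: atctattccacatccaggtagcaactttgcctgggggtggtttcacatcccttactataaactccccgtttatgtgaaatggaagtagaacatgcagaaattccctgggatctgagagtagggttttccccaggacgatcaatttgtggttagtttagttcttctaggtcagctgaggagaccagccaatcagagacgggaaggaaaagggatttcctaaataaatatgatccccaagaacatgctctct
Cxcl10: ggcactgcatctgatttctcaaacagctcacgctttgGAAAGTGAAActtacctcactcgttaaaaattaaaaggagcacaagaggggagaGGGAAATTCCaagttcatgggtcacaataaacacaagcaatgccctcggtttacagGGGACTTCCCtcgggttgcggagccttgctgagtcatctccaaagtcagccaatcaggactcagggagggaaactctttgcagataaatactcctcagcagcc
Cxcl1, Cxcl2 and Cxcl3 carried the same run GGGAATTTCCC, which matches the NF-kB consensus on both strands, with its first base at position -71, -97 and -73 from the start. Cxcl10 had an ISRE core at position -213 and NF-kB matches at -159 and -103, and the window of Cxcl9 had neither. The search covered 250 bases before to 50 bases after the start on both strands. An NF-kB match was found for 7 of the 26 members with a promoter entry (Ccl9, Csf1, Cxcl1, Cxcl2, Cxcl3, Cxcl10 and Igfbp5) and in 4.51% of all 32851 promoters, and an ISRE core for 3 (Ccl19, Cxcl10 and Cxcl14) and in 3.44%. The retinoic acid response element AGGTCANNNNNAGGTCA, a direct repeat, was found for 0 of the 26 and in 0.00913% of all promoters (3 promoters). The letters TATAAA on the strand of the gene were found for 12 of the 26 and in 8.32%. These matches describe letters in a window and not binding.

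Cxcl9 (chr5:92321347-92328079), which with Cxcl10 recruits activated T cells and NK cells through Cxcr3, had the largest fall of the 36 members in the edgeR comparison of 5 mice, though not in every alternative (Ccl3 was at -5.32 and Cxcl9 at -4.62 in limma-voom). It was at 0.615, 1.33, 0.617 and 1.22 CPM in the VA-free libraries. In the control libraries it was at 25.5, 28.96, 16.3 and 19.8 CPM. The highest VA-free library lay far below the lowest control library, and the log2 fold change was -4.58 (SE 0.36, adjusted p = 0.000325). Cxcl10 (chr5:92346638-92348889) was at 35.7, 29.8, 37.1 and 36.4 CPM in the VA-free and 95.7, 87.1, 48.5 and 127 CPM in the control libraries, again without overlap. The change was -1.40 (SE 0.13, adjusted p = 0.000494), and it missed the threshold without control 2B (-1.07, adjusted p = 0.0526) or with the first library of each mouse (-1.06, adjusted p = 0.0573). Both genes lie within the 27.5 kb of chr5:92321347-92348889.

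Cxcl1 (chr5:90891241-90893115) was among the most abundant members on both diets, at 392, 484, 381 and 353 CPM in the VA-free libraries and 533, 535, 281 and 606 CPM in the control libraries. Control 2A was the lowest library and the other 3 controls the highest. The log2 fold change was -0.24 (SE 0.17, adjusted p = 0.293) and -0.47 without control 2A (adjusted p = 0.0328), but it was above 0 when the trend with transcript length was removed (0.40) and in TPM (0.15), which do not pass. Cxcl2 (chr5:90903871-90905938) was at 4.23, 5.73 and 3.2 CPM in the VA-free mice and 5.93 and 11.98 CPM in the control mice, with control 2B far above the other controls (18.6 CPM). The difference of -1.03 (SE 0.37, adjusted p = 0.0633) passed without control mouse 1 (-1.46), control 1B (-1.11) or control 2A (-1.49), with adjusted p between 0.0161 and 0.0405. Cxcl3 (chr5:90786103-90789600) had 97, 85, 85 and 75 counts in the VA-free libraries and 12, 38, 0 and 76 counts in the control libraries. Cxcl5 (chr5:90759360-90761624) had 65, 75, 57 and 35 and 41, 0, 2 and 48 counts in the same order. For both, each VA-free mouse was above each control mouse, but the control libraries of 1 mouse differed widely, from 0 in 2A to 76 counts in 2B for Cxcl3. The log2 fold changes were 1.18 (SE 0.44, adjusted p = 0.0709) and 1.13 (SE 0.49, adjusted p = 0.112). Without control 2A they were 0.56 (adjusted p = 0.4441) and 0.60 (adjusted p = 0.4205). At the other end, Cxcl3 was at 3.59 with the first library of each mouse and Cxcl5 at 2 without control 1A. All 4 act on neutrophils through Cxcr2; edgeR called 0 of them, 2 (Cxcl2 and Cxcl3) had an unadjusted p under 0.05, DESeq2 called these 2 and limma-voom called 0.

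All 4 members of the interleukin-1 family were lower in every VA-free mouse than in either control mouse, and 3 passed, where 32.2% of all genes were separated in this way and 22.5% were called lower. For Il1a the margin was narrow, at 0.108 CPM in VA-free mouse 2 and 0.131 CPM in control mouse 1. Its libraries overlapped between the diets. Il33 (chr19:29925114-29960718), a nuclear alarmin released by damaged stromal and endothelial cells, was at 0.32, 0.967, 1.5 and 1.39 CPM in the VA-free libraries and at 17.1, 15.9, 22.2 and 14.6 CPM in the control libraries. No library came near the other diet, with a log2 fold change of -4.24 (SE 0.54, adjusted p = 0.00119). Il1b (chr2:129364570-129371139), the interleukin that inflammasomes mature, had 19, 22, 4 and 1 counts in the VA-free libraries and 99, 75, 57 and 279 counts in the control libraries. All VA-free libraries were lower, the log2 fold change was -3.58 (SE 0.75, adjusted p = 0.00878), and it missed the threshold without control 2B (-2.86, adjusted p = 0.0592). Il18 (chr9:50554827-50581840), matured by the same proteases, was at 8.65, 9.62 and 9.52 CPM and 15.7 and 16.02 CPM in the VA-free and control mice. It fell by 0.78 (SE 0.16, adjusted p = 0.00801) without overlap of libraries, but the log2 fold change was -0.05 with the length trend removed (adjusted p = 0.840) and -0.33 in log2 TPM with a pseudocount of 1 (adjusted p = 0.0575). Il1a (chr2:129299610-129309972), active without such processing, rested on 2, 6, 2 and 0 counts in the VA-free and 6, 6, 2 and 43 counts in the control libraries. Control 2B held most of them, and the log2 fold change of -2.55 (SE 1.00, adjusted p = 0.0812) passed only when VA-free mouse 2 was left out (-3.62, adjusted p = 0.0373).

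Among the other cytokines Il15, Il34 and Tnf fell and Il10 and Csf1 did not pass. Il15 (chr8:82331632-82403222), which sustains NK cells and memory T cells and is made by muscle, was at 0.949, 0.984, 1.17 and 1.05 CPM in the VA-free libraries. In the control libraries it was at 8.71, 2.79, 6.4 and 5.33 CPM. The VA-free libraries lay close together and below all controls, with a log2 fold change of -2.52 (SE 0.27, adjusted p = 0.000655). Tnf (chr17:35199381-35202007), a leading inflammatory cytokine, was at 0.715, 1.18, 0.573 and 0.483 CPM and 4.48, 6.01, 2.00 and 7.09 CPM in the same order, and it fell by 2.61 (SE 0.40, adjusted p = 0.00253).

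Il34 and Csf1 are alternative ligands of Csf1r, the receptor that keeps macrophages alive. Il34 (chr8:110741829-110805924) was at 2.35, 2.83, 1.83 and 2.17 CPM in the VA-free and 20.5, 18.8, 5.11 and 13.2 CPM in the control libraries. No library overlapped, although control 2A was the lowest control, and the log2 fold change was -2.60 (SE 0.36, adjusted p = 0.00169). Csf1 (chr3:107741048-107760469) was at 48.1, 51.8 and 54.3 CPM in the VA-free mice and 85.95 and 55.5 CPM in the control mice, and control mouse 2 lay just above the VA-free mice. Its log2 fold change of -0.46 did not pass (SE 0.19, adjusted p = 0.0932), though it did without control 2A (-0.56, adjusted p = 0.0175). Fits with 1 control mouse differed, giving -0.75 when control mouse 1 was kept and -0.11 when control mouse 2 was kept. Il10 (chr1:131019845-131024974), an anti-inflammatory cytokine, had 16, 10, 1 and 3 and 12, 0, 66 and 32 counts in the VA-free and control libraries. The mice overlapped, and the log2 fold change of -2.01 did not pass (SE 0.99, adjusted p = 0.148). The fall rested on control mouse 2: dropping this mouse moved the value to -0.01, whereas dropping control mouse 1 moved it to -2.82.

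The IGF binding proteins moved in both directions: Igfbp3, Igfbp6 and Igfbp7 fell, Igfbp4 rose and Igfbp5 did not pass. Igfbp6 (chr15:102144362-102149511), which binds IGF-II over IGF-I, was at 61.8, 68.9, 68.7 and 69.9 CPM in the VA-free libraries and 220.2, 178, 231 and 164 CPM in the control libraries. The groups were tight and far apart, and the log2 fold change was -1.55 (SE 0.11, adjusted p = 0.000254). Igfbp7 (chr5:77349240-77408041), a secreted vessel-associated protein with low affinity for IGFs, was at 144, 168, 149 and 156 CPM and 803, 808, 246 and 596 CPM in the same order. Control 2A was the lowest control library but still above all VA-free libraries, with a log2 fold change of -1.99 (SE 0.27, adjusted p = 0.00148).

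Igfbp4 (chr11:99041244-99054392), which holds IGFs away from their receptor until it is cleaved, was at 405, 395, 444 and 446 CPM in the VA-free libraries and 149, 236, 39.1 and 220.4 CPM in the control libraries. Each VA-free library was above every control, and control 2A was far below the other controls. The log2 fold change was 1.36 (SE 0.19, adjusted p = 0.00182) and missed the threshold without control 2B (1.82, adjusted p = 0.0957). Igfbp3 (chr11:7206086-7213923), the main IGF carrier of serum, was at 70.4, 37.4 and 67.6 CPM in the VA-free mice and 148 and 87.04 CPM in the control mice. The log2 fold change of -1.005 (SE 0.32, adjusted p = 0.0406) was -0.58 without control mouse 1 (adjusted p = 0.229). It missed the threshold also without VA-free mouse 1, 2 or 3, control 1A or control 2B (adjusted p between 0.0524 and 0.167). Igfbp5 (chr1:72857932-72874884), abundant in muscle, was at 435, 508 and 366 CPM and 404 and 298 CPM, with overlap. Its log2 fold change was 0.31 (SE 0.19, adjusted p = 0.237). It passed without control 1B (0.48, adjusted p = 0.0478) but not without control 2A (adjusted p = 0.9196), and it was -0.30 with the length trend removed.

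Technical replicates of 1 mouse lay close together in VA-free mouse 3 and far apart in control mouse 2. Differences of log2(CPM + 1) between libraries A and B were over 1 for 0 of 36 members in VA-free mouse 3, for 2 of 36 in control mouse 1 (Ccl8 and Il15) and for 17 of 36 in control mouse 2. In the last, 5 members were higher in A, with Ccl7 at 1.97, and 12 were higher in B, with Igfbp4 at -2.46. The median size of the difference was 0.078, 0.206 and 0.820 in these 3 mice. The cause of the difference in control mouse 2 was not tested. Leaving out control 2B left 14 of the 34 members then tested past the threshold, all lower, where the share of all genes called dropped from 41.4% to 25.2%. Leaving out control 2A left 24 members, of which 22 were lower and 2 higher, and 39.6% of all genes. Without control mouse 2 altogether, 20 were lower and 1 higher, and 38.8% of all genes were called.

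**Figure D4:**
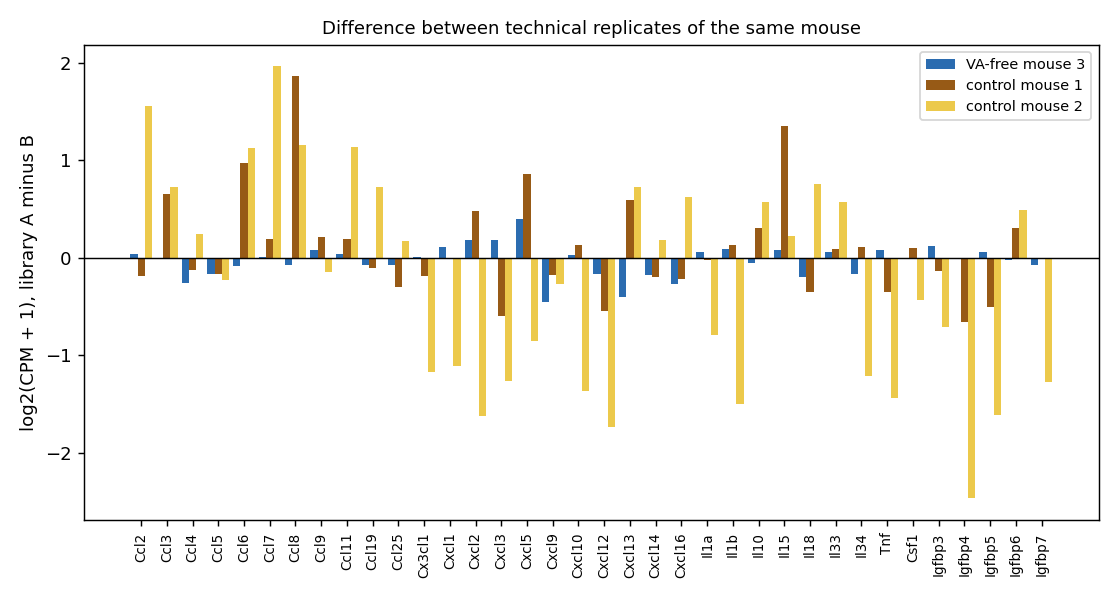
The bars give the difference of log2(CPM + 1) between libraries A and B for each member in the 3 mice that have both. Bars of VA-free mouse 3 stay within -0.46 and 0.40, whereas those of control mouse 2 run from -2.46 (Igfbp4) to 1.97 (Ccl7).

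Transcript length moved with the fold change and the members are short. Their median transcript length was 1161 bases against 2133 bases over all genes tested. Among the 5999 shortest genes, of up to 1585 bases, the median log2 fold change was -0.54 and 38.8% were called lower; among the 5999 longest, of over 2787 bases, it was 0.48 and 10.9% were called lower. The 24 members in the short class had a median of -1.71 and the 10 members of middle length a median of -1.85, where all genes of that class had 0.03. The 2 members in the long class, Csf1 and Igfbp5, did not pass and had a median of -0.07. With the trend removed, 16 members were lower and 2 higher, against 17.5% and 12.0% of all genes, and the median of the members was -1.11. Ccl2 (-0.62, adjusted p = 0.185), Ccl6 (-2.80, adjusted p = 0.0859), Ccl7 (-0.35, adjusted p = 0.490), Ccl9 (-2.55, adjusted p = 0.0525), Ccl19 (-0.04, adjusted p = 0.899), Il18 (-0.05, adjusted p = 0.840) and Cx3cl1 (0.62, adjusted p = 0.0795) no longer passed. Csf1 (-0.87, adjusted p = 0.0138) and Cxcl3 (1.68, adjusted p = 0.0300) then passed.

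**Figure D5:**
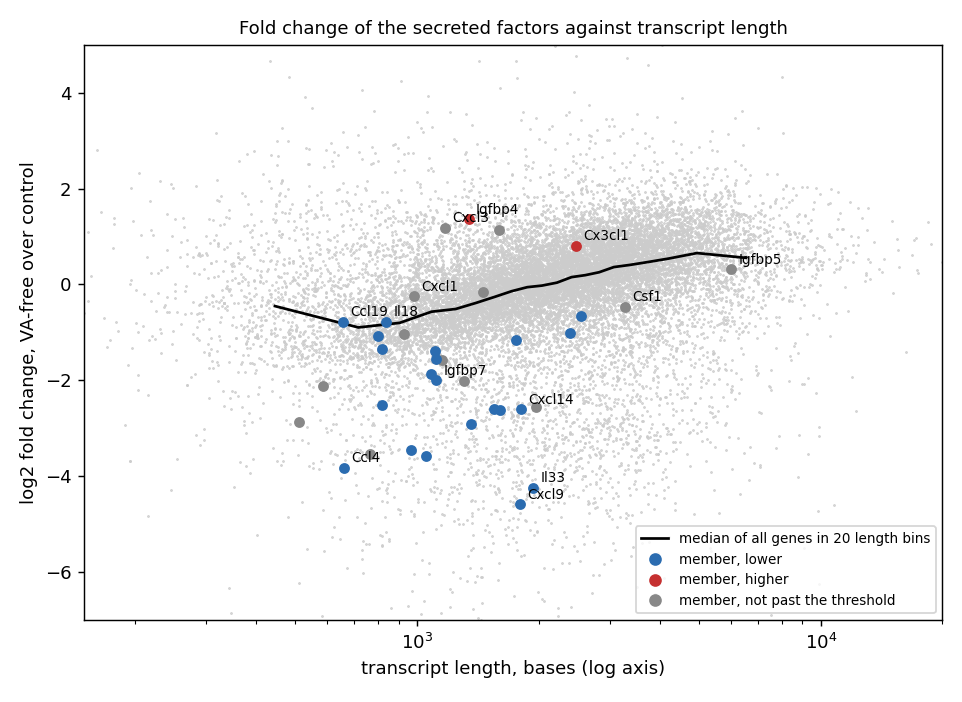
The horizontal axis gives transcript length in bases on a log scale and the vertical axis the log2 fold change, with all genes in grey (the axis ends at -7 and 5), their median in 20 length bins as a line and members in colour. Ccl19 and Il18 lie on the line of the median, whereas Cxcl9 (-4.58) and Il33 (-4.24) lie well below it.

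Per unit of length, the order of the levels changed between the diets. In TPM, which scales estimated counts by transcript length, Igfbp7 (798 ± 339.7, SD, n = 2 mice), Cxcl1 (739 ± 85.4), Igfbp6 (252 ± 7.29), Ccl7 (186 ± 101) and Igfbp4 (173 ± 41.2) led the members on the control diet. The spreads of Igfbp7 and Cxcl1 overlapped, as did those of Ccl7 with Igfbp6 and with Igfbp4. On the VA-free diet Cxcl1 (822 ± 119.7, SD, n = 3 mice) and Igfbp4 (618 ± 25.5) led, followed by Igfbp7 (272 ± 16.5), Igfbp5 (133 ± 22.97) and Ccl7 (121 ± 27.8). Neighbours from Igfbp5 to Ccl7 overlapped in their spread, while Igfbp4 and Igfbp7 did not. Il1a, Il10 and Ccl5 were the least abundant on the VA-free diet at under 1 TPM each, and 12 of the 36 members had a mean under 1 CPM there against 5 on the control diet.

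The receptors for these ligands were not uniformly lower. Of 22 chemokine receptors 19 passed the filter, 5 fell and 2 rose, against 22.5% and 18.9% of all genes. The log2 fold change was below 0 for 17 of the 19 and for 8977 of all 17997 genes. Cxcr4 and Ackr3, the signalling and scavenging receptors of Cxcl12, rose, and Cxcr4 is also in the MuSC marker list above. Cxcr4 went from 27.8 and 24.7 CPM in control mice 1 and 2 to 45.1, 33.2 and 48.4 CPM in VA-free mice 1 to 3 (log2 fold change 0.69, SE 0.19, adjusted p = 0.0243). Ackr3 went from 320.5 and 288 to 479, 554 and 579 CPM (0.82, SE 0.14, adjusted p = 0.00331). Ackr1, a chemokine sink of venular endothelium, fell from 133 and 65.7 to 0.45, 2.38 and 0.0398 CPM (-6.85, SE 1.07, adjusted p = 0.00267), and this gene is also in the endothelial list above. Ccr2, the receptor of Ccl2 and Ccl7, fell from 1.48 and 13.8 to 0.43, 0.876 and 0.29 CPM (-3.87, SE 0.91, adjusted p = 0.0138), with control mouse 2 far above control mouse 1. The Ccl19 receptors Ccr7 (-5.17, adjusted p = 0.0214) and Ackr4 (-2.16, adjusted p = 0.0463) and the Cxcl13 receptor Cxcr5 (-4.77, adjusted p = 0.0198) fell from low levels. Ccr1, Ccr3, Ccr9, Cxcr2, Cxcr6 and Cx3cr1 did not pass, and all had means of at most 2.30 CPM on either diet. Cxcr1, Cxcr3 and Ccr6 were not tested, and Cxcr3, the receptor of Cxcl9 and Cxcl10, had a mean of 0.00598 ± 0.0104 CPM (SD, n = 3) and 0.00474 ± 0.0067 CPM (SD, n = 2).

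Of 19 cytokine receptors and decoys, 7 fell and 1 rose, against 22.5% and 18.9% of all genes. Il2rg, the shared chain of the Il15 receptor, fell from 41.7 and 44.8 CPM in the control mice to 0.491, 2.33 and 1.02 CPM in the VA-free mice (-5.12, SE 0.56, adjusted p = 0.000723), and Il15ra from 24.4 and 26.4 to 11.7, 13.2 and 11.4 CPM (-1.07, SE 0.15, adjusted p = 0.00178), while Il2rb did not pass (-1.39, adjusted p = 0.123). Il10rb, Csf2rb, the interleukin-18 decoy Il18bp, the interleukin-1 antagonist Il1rn and the decoy receptor Il1r2 fell as well (log2 fold changes -1.27, -3.12, -1.84, -2.69 and -1.99). Ptprz1, which can bind Il34, rose from 92.96 and 108 to 216, 238 and 249 CPM (1.22, SE 0.13, adjusted p = 0.000689). The signalling receptors Il1r1 (-0.10, adjusted p = 0.658), Il1rap (0.20, adjusted p = 0.311), Tnfrsf1a (0.37, adjusted p = 0.179) and Tnfrsf1b (-0.13, adjusted p = 0.492) did not pass. Nor did Il1rl1, the Il33 receptor (1.44, adjusted p = 0.245), Il18r1, Il18rap or Csf1r, which was at 11.9, 28.8 and 4.03 CPM in the VA-free mice and 5.51 and 22.8 CPM in the control mice.

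Genes around the IGF binding proteins also went both ways, with 2 lower and 4 higher of 13 tested (22.5% and 18.9% of all genes). Igf2r, which clears IGF-II, rose from 69.4 and 96.9 to 362, 337 and 305 CPM (2.01, SE 0.18, adjusted p = 0.000418), the signalling receptor Igf1r by 0.50 (SE 0.13, adjusted p = 0.0208) and its adaptor Irs2 by 1.48 (SE 0.17, adjusted p = 0.000847). The ligand Igf2 fell by 0.62 (SE 0.14, adjusted p = 0.0118), whereas Igf1 did not pass (-0.32, adjusted p = 0.409). Correcting for the length trend gave 2 lower and 2 higher of the 13, against 17.5% and 12.0% of all genes. It took the middle log2 value of these genes from 0.50 to 0.05, so the rises depended in part on this correction.

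NF-kB is the transcription factor family downstream of Tnf and interleukin-1 receptors and drives many chemokine genes. Of 25 pathway genes, 11 rose and 2 fell, against 18.9% and 22.5% of all genes, with a median log2 fold change of 0.37. Rela, its main activating subunit, rose from 328 and 208 to 463, 562 and 535 CPM (0.96, SE 0.21, adjusted p = 0.011), and the kinases Ripk1 and Irak1 rose by 0.77 (SE 0.12, adjusted p = 0.00287) and 0.77 (SE 0.16, adjusted p = 0.00962). Nfkbia, the inhibitor that NF-kB itself induces, fell from 1495 and 991 to 577, 783 and 644 CPM (-0.90, SE 0.21, adjusted p = 0.0136). With the length trend removed 6 of the 25 rose and none fell, against 12.0% and 17.5% of all genes.

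Genes that mature secreted cytokines were mixed, with 5 lower and 1 higher of 13 tested, where all genes gave 22.5% and 18.9%. The proteases Casp8 (-2.38, SE 0.16, adjusted p = 0.000246), Casp4 (-0.85, SE 0.19, adjusted p = 0.0111) and Dpp4, which trims chemokines (-4.88, SE 0.42, adjusted p = 0.000389), fell, and Adam17, which sheds Tnf and other membrane-bound factors, rose by 0.47 (SE 0.15, adjusted p = 0.0415). With the length trend removed 4 of these 13 were lower and 0 higher, against 17.5% and 12.0% of all genes, so Adam17 no longer passed. Dpp4 is also a FAP marker in the list above. Of 47 other secreted senescence factors, 41 passed the filter, 16 fell and 6 rose, against 22.5% and 18.9% of all genes, with a median log2 fold change of -0.52. Removing the length trend left 12 lower and 3 higher in this list, against 17.5% and 12.0% of all genes, with a median of -0.18. Timp2, an inhibitor of matrix proteases, rose from 1023 and 750.5 to 1393, 1614 and 1559 CPM (0.78, SE 0.17, adjusted p = 0.00976), and Vegfa, the vascular growth factor, by 0.54 (SE 0.17, adjusted p = 0.0435). Of the adhesion molecules in this list Vcam1, which is also a MuSC marker, rose by 0.73 (SE 0.11, adjusted p = 0.00276) and Icam1 fell from 499 and 208 to 52.6, 69.8 and 52.9 CPM (-2.60, SE 0.34, adjusted p = 0.00143).

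Enzymatic digestion of muscle induces immediate early genes, some chemokines among them. Of 20 such genes 4 fell and 5 rose, against the 22.5% and 18.9% of all genes, and their summed level was between 34920 and 41080 CPM in the VA-free libraries and between 31090 and 42240 CPM in the controls, which overlapped. Fos fell by 0.41 (SE 0.13, adjusted p = 0.0441) and Dusp1 by 0.80 (SE 0.14, adjusted p = 0.00396), while Egr1 rose by 0.68 (SE 0.20, adjusted p = 0.0313) and Fosb by 0.88 (SE 0.14, adjusted p = 0.00326). With the length trend removed 2 of the 20 were lower and 4 higher, against 17.5% and 12.0% of all genes. The part of the digestion in the levels of the members was not tested.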

How the data were processed

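RNA of sorted MuSCs was copied with SMART-Seq v4 and made into Nextera XT libraries read as 75 bp single ends, a protocol that does not mark strand. The authors estimated counts per transcript with kallisto (version 0.46.2 in the submitters' processing notes) against GRCm38, Ensembl release 96, and checked reads with FastQC. The deposited estimated counts are not normalized between libraries and can be shared among similar transcripts. The deposited TPM divide each estimate by effective transcript length and sum to a constant. RNA of RIN 9 or higher was chosen for sequencing.

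Estimated counts of 116816 of 118489 transcripts were added per gene and per mouse and rounded, leaving 0.647% to 0.756% of counts without a gene. Mice were compared by diet in R 4.3.3 with the quasi-likelihood test of edgeR 4.0.16, after TMM scaling and filterByExpr, at a Benjamini-Hochberg threshold of 0.05 over 17997 genes. The standard error is the log2 fold change divided by the square root of F. Levels are TMM-normalized CPM. Promoter letters are from RefSeq (GRCm38.p6). Technical replicates are not independent animals, and 2 control mice give the spread of that diet.

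The 36 members, the other lists and the naming rule (every member past the threshold or without overlap, and from other lists up to 4 of the most abundant called genes plus the receptors of members) were chosen with earlier results of these data known. Alternatives (25) covered DESeq2 1.42.0, limma 3.58.1 (voom, and log2 TPM with a pseudocount of 1 or 0.1), other scalings and filters, a robust fit, libraries instead of mice, length corrections (lowess, span 0.3), the replicate number as a block and each mouse or library left out. The tests were checked on simulated counts, where DESeq2 called more unchanged genes than edgeR or limma-voom, and edgeR missed most of the smallest changes made there. At a median of 52290679 counts per library, the widest standard errors among the members were those of Ccl3, Ccl8 and Ccl6. A few genes of the other lists enter the counts and sums but are not reported here by name.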

Additional observations from a re-analysis of the deposited data

How the results depend on the processing

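Over 25 alternatives the members gave 882 values: 756 kept both direction and side of the threshold, 79 no longer passed, 41 newly passed and 6 turned direction. Called in every alternative were 11 members: Ccl4, Ccl11, Cxcl9, Cxcl14, Cxcl16, Il15, Il33, Il34, Tnf, Igfbp6 and Igfbp7. Of the 13 members that did not pass, all but Ccl25 passed in at least 1 alternative. The 6 that turned belonged to 3 members that did not pass before or after: Cxcl1 (0.0543 with the first library of each mouse, 0.401 with the length trend removed, 0.1489 and 0.149 in log2 TPM with a pseudocount of 1 and 0.1), Ccl25 (0.12 with the length trend removed) and Igfbp5 (-0.303 with the length trend removed).

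The count of 23 members past the threshold was 14 to 25 with a mouse or library left out and 16 to 26 in the others, with 14 (0 of them higher) without control 2B. Of all genes, 41.4% were called, 25.2% without control 2B, up to 43.3% with another mouse or library left out, and 29.1% to 52.9% in the others. DESeq2 and the unfiltered fit gave 26 members each, with 46.5% and 29.2% of all genes called. In log2 TPM 15 were lower and 5 higher, against 21 and 2, and the median of all genes moved to 0.19 (pseudocount 1) and 0.35 (pseudocount 0.1). Ccl2, Ccl6, Ccl7, Ccl9, Ccl19, Cxcl12, Il18 and Igfbp3 did not pass there, and Ccl3, Ccl8, Cxcl3, Cxcl5 and Igfbp5 did. The cause of these differences was not tested.

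With the replicate block 22 members passed (21 lower, 1 higher), and 29.1% of all genes; Cx3cl1, Cxcl12 and Il18 did not pass there (adjusted p = 0.0677, 0.0844 and 0.0592) and Ccl3 and Ccl8 did. Deviations from the mean of each diet were compared between mice with the same number (r of -0.065 for mouse 1 and 0.010 for mouse 2 across genes). With 2 control mice these deviations mirror each other, so the r values are not independent. They cannot decide whether the number pairs the mice. Ccl5 and Il1a rested on at most 27 and 43 counts in any library, and only 2 control mice gave the spread of that diet.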
